A study of Mus musculus with 9 samples.

Results

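The subject here is the set of nuclear genes that encode subunits of the mitochondrial respiratory chain and the ATP synthase, described across 3 kinds of mouse neurosphere. Members were chosen by gene symbol, as genes of the Nduf, Sdh, Uqcr, Cox and Atp5 subunit families. The rule used no measured value, but the set was chosen with earlier results of these data known. On the array, 164 probe sets with 1 gene symbol stood for 81 such genes of the 18194 genes measured. By family, 33 belong to complex I, 4 to complex II, 8 to complex III, 17 to complex IV and 17 to the ATP synthase (complex V), and the pair Ndufa4 and Ndufa4l2 was set apart because Ndufa4, first assigned to complex I, is now placed in complex IV. The subunits encoded by mitochondrial DNA were not analysed here.

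The values come from 9 Affymetrix mouse arrays, 3 for each kind of sphere, hybridised with RNA of free-floating colonies at passage 3 grown from C57BL/6J embryos at embryonic day 12.5. BMP NCSC were grown from dorsal root ganglia (DRG), the sensory ganglia formed by the neural crest, with 20 ng/ml bFGF, 20 ng/ml EGF and 10 ng/ml of the bone morphogenetic protein BMP4. rNCSC were grown from DRG in the same 2 growth factors without BMP4. SCSC were grown from spinal cord in that medium without BMP4. Whether arrays of 1 group stem from different embryos or cultures is not stated by the labels, and p-values therefore measure the spread between arrays alone, which may be technical. Values are log2 expression values as deposited, on which 1 unit is a doubling. The number of arrays limits the precision.

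The respiratory chain passes electrons from NADH (complex I) and succinate (complex II) through complex III and cytochrome c to oxygen at complex IV. The protons pumped on the way drive the ATP synthase. Most subunits are made from nuclear genes that nearly all cells use, and several complex IV subunits exist as paralogues of which 1 is used widely and another in heart, skeletal muscle, lung or testis. Neural progenitors are known to shift towards respiration as they differentiate, while cells that form cartilage are known for a glycolytic metabolism.

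Most of the subunit genes were moderately lower in DRG spheres grown with BMP4 than in either kind of sphere grown without it. The median difference of the 74 tested members was -0.64 for BMP NCSC minus rNCSC, a ratio of 0.64, with quartiles of -0.95 and -0.37. Over all 10320 genes tested it was -0.07, with quartiles of -0.85 and 0.86. For BMP NCSC minus SCSC the members' median was -0.66, against -0.10 over all genes. Both comparisons use the same 3 BMP NCSC arrays and are therefore not independent of each other. Fewer cells of a type and less RNA per cell cannot be told apart in such bulk samples, and arrays normalized to each other would hide a change in total RNA per cell. A gene was tested when it reached 5 on at least 3 arrays. Of the tested members, 73 reached 5 on all 9 arrays and 1, Cox8b, did not.

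The shift was present on every array. The median level of the tested members was 11.61, 11.56 and 11.54 in BMP NCSC, against 12.31, 12.31 and 12.35 in rNCSC and 12.27, 12.26 and 12.29 in SCSC. The medians of the 3 BMP NCSC arrays lay below those of the other 6, while the median over all genes tested lay between 8.13 and 8.25 on all 9. All 3 BMP NCSC arrays were below all 6 others for 70 of the 74 members, or 94.6%, a pattern shown by 40.9% of all genes tested. They were above all 6 others for 1 member, Cox8b, against 35.0% of all genes. In the 3 members left, Cox6b2, Ndufa1 and Ndufa6, the arrays overlapped.

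**Figure D1:**
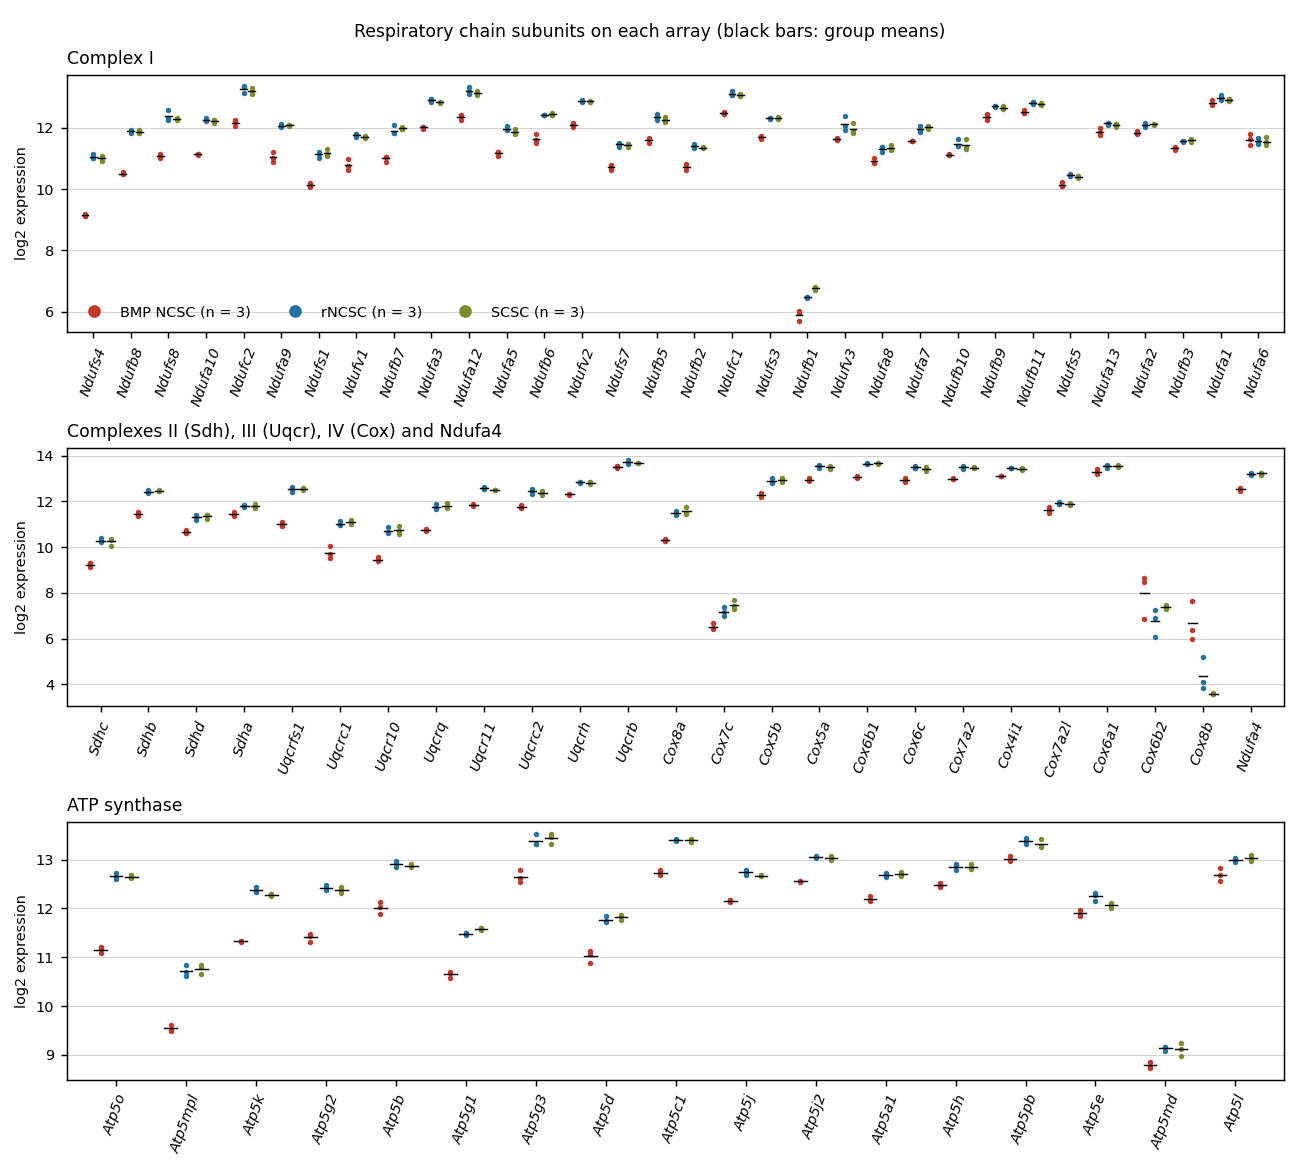
Log2 expression of the 74 tested subunit genes on each of the 9 arrays (points) with group means (black bars, n = 3), by complex and ordered within each family by the difference between BMP NCSC and rNCSC. The BMP NCSC points lie below the others for 70 genes, and Cox8b is the 1 gene for which they lie above.

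In limma's moderated test over all genes, with Benjamini-Hochberg adjustment, 70 members (94.6%) were lower in BMP NCSC than in rNCSC at an adjusted p below 0.05 and any size, where 41.2% of all genes tested were. Higher at any size were 2 members (2.70%), Cox8b and Cox6b2, against 36.8% of all genes. Ndufa1 (-0.17, adjusted p = 0.086) and Ndufa6 (0.05, adjusted p = 0.70) did not pass. A gene is here called only if it also differs by at least 1 on the log2 scale. By that rule 17 members (23.0%) were called lower, near the 21.3% of all genes, and 2 (2.70%) were called higher, against 22.6%. The members' share thus lay far from that of all genes for direction. For large falls it lay near it when the level of the genes was left aside. By range of level, given below, it was greater under a mean of 12 but not far off from 12 upwards.

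Against SCSC the picture was alike in its counts. At any size 68 members (91.9%) were lower in BMP NCSC, where 43.1% of all genes were, and 1 (1.35%), Cox8b, was higher, where 36.6% were. Called lower were 16 (21.6%), against 24.0% of all genes, and called higher was 1 (1.35%), against 22.9%. The 5 that did not pass were Ndufa1, Ndufa6, Uqcrb, Atp5e and Cox6b2. Called lower in both comparisons were 15 members, and the share of all genes called lower in both was not counted. The 15 were Ndufa9, Ndufa10, Ndufb8, Ndufc2, Ndufs1, Ndufs4, Ndufs8, Sdhc, Uqcrc1, Uqcr10, Uqcrfs1, Uqcrq, Cox8a, Atp5mpl and Atp5o.

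rNCSC and SCSC, from different tissues but in the same medium, differed little in these genes. No member was called in rNCSC minus SCSC by limma, with 1 member at an unadjusted p below 0.05 (Ndufb1, -0.29, adjusted p = 0.27), and 1 gene (0.00969%), Efcab7, was called lower over all genes. The members' median difference was 0.02. The 95% interval of the difference lay within 0.5 of zero for 70 members. The exceptions were Cox8b, Cox6b2, Cox7c and Ndufb1, with differences of 0.78, -0.62, -0.30 and -0.29.

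The members were also set beside genes of like mean level over the 9 arrays. Among the 12 members with a mean under 11 the median of BMP NCSC minus rNCSC was -0.83, against -0.02 for the 9118 genes of that range. Between 11 and 12 it was -0.74 (23 members) against -0.23 (724 genes), and between 12 and 13 it was -0.64 (29 members) against -0.26 (356 genes). At 13 and over it was -0.53 (10 members) against -0.19 (122 genes). The members' median was the lower one in each range. By the rule for calls against rNCSC, 6 of the 12 members under 11 were lower, and 2050 of the 9118 genes. Between 11 and 12 there were 7 of 23 members and 110 of 724 genes, and between 12 and 13 there were 4 of 29 and 36 of 356. At 13 and over there were 0 of 10 and 1 of 122. The members' share called lower was thus the greater one in each range under 13, though by little between 12 and 13. These counts of members are small. The range under 11 is wide, so its genes are not all of like level.

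**Figure D2:**
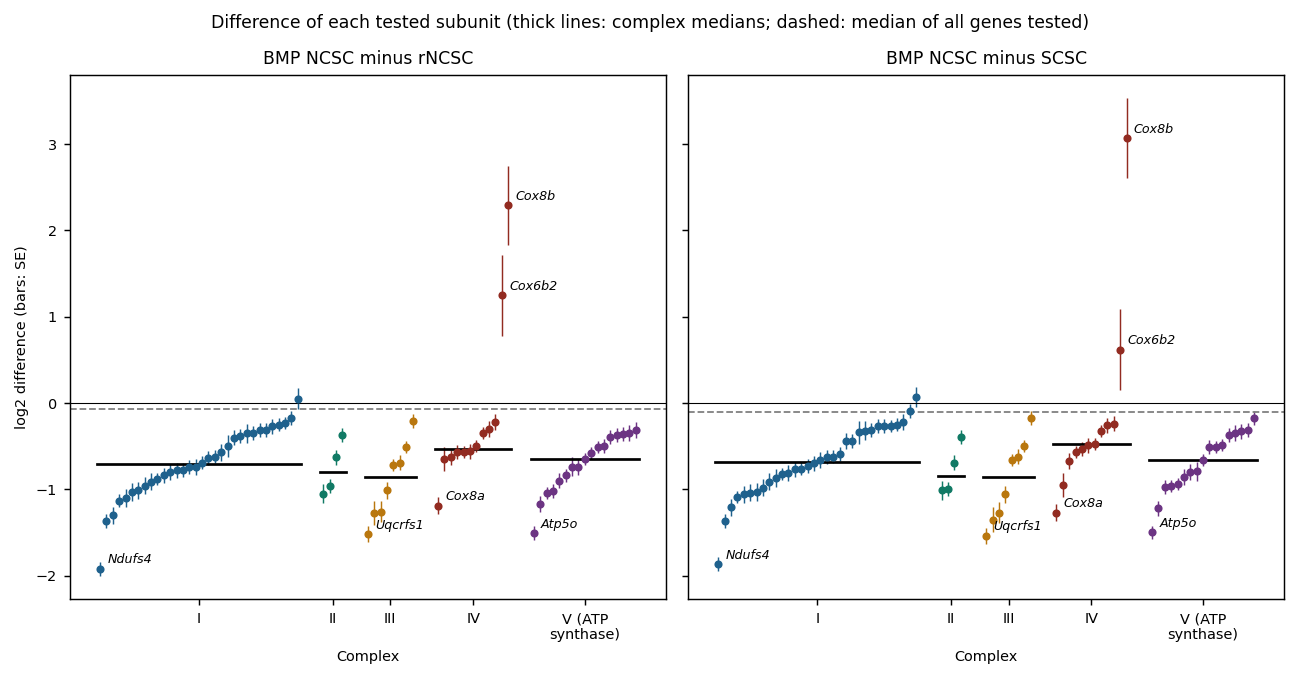
Log2 difference of each tested subunit (points, with SE) for BMP NCSC minus rNCSC (left) and BMP NCSC minus SCSC (right), by complex, with the median of each complex (thick line) and of all genes tested (dashed). Medians lie between -0.86 (complex III) and -0.48 (complex IV), and Cox8b (2.29 and 3.07) stands far above the other members.

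Promoters of 4 genes with large differences are shown, chosen with their values known, to set sequence beside direction: Ndufs4, the member with the largest fall, Uqcrc1 and Cox8a, which also fell, and Cox8b, which rose. The RefSeq table for build GRCm38.p6 held promoters for 66 of the 81 members (71 promoters, since 5 members have more than 1), each running from 250 bases before to 50 after the annotated start. Capitals mark matches, on either strand, to cores of factors known to bind promoters of these genes: GCATGCGC for nuclear respiratory factor 1 (Nrf1), CCGGAAG for the ETS family to which Gabpa belongs, AAGATGGCG for Yy1, and ACGTG for the hypoxia response element. Uqcrc1 lies on the plus strand at chr9:108936398-108936697, and the others on the minus strand, Ndufs4 at chr13:114388045-114388344, Cox8a at chr19:7217567-7217866 and Cox8b at chr7:140900397-140900696.
Ndufs4: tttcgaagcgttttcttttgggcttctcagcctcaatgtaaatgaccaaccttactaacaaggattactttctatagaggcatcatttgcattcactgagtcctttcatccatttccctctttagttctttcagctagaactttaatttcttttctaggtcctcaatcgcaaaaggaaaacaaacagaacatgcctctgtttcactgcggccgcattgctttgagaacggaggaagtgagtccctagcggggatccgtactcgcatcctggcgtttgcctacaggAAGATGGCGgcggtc
Uqcrc1: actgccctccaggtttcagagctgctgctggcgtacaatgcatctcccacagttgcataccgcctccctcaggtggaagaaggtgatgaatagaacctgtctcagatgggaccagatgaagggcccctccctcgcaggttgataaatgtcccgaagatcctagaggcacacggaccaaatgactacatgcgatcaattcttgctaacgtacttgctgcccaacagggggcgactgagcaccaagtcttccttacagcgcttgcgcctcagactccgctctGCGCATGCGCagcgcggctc
Cox8a: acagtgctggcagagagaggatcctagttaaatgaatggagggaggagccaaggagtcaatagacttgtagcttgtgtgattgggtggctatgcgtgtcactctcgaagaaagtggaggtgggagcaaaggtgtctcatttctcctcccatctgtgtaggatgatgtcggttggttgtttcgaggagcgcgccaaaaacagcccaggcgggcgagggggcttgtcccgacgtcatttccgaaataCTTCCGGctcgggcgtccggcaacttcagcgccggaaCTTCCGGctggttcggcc
Cox8b: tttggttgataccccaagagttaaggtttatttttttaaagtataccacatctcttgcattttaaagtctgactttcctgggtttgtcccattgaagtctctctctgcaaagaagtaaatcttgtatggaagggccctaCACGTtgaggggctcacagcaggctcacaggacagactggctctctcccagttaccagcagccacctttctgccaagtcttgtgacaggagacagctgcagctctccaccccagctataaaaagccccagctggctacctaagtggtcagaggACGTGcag
The Ndufs4 promoter has 1 Yy1 core. In Uqcrc1 the capitals hold the Nrf1 core on both strands, in overlapping letters. Cox8a has 2 ETS cores, and Cox8b has 2 hypoxia response cores and none of the other 3 motifs. Over the members' promoters, 9 of 71 (12.7%) held the Nrf1 core, 17 (23.9%) the ETS core and 6 (8.45%) the Yy1 core. Of all 32851 promoters in the table, 2.71%, 8.86% and 1.40% did. The hypoxia response core was in 19 of 71 (26.8%) and in 19.6% of all. At least 1 of the Nrf1, ETS and Yy1 cores was in the promoters of 26 members. The 4 printed promoters do not stand for the whole set. Those of Uqcrfs1 (-1.52) and Atp5o (-1.51), the next largest falls against rNCSC after Ndufs4, held none of the 4 motifs. That of Ndufa6, which did not pass (0.05), held an Nrf1 core. Members called lower against rNCSC had 13 promoters. Nrf1 cores were in 3 of these (23.1%), ETS cores in 3 (23.1%), Yy1 cores in 2 (15.4%) and hypoxia response cores in 1 (7.69%). A match is a description of the letters and not evidence of binding.

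Complex I, the NADH dehydrogenase, had 32 tested members, of which 30 were lower at any size against each of the other groups. Their median was -0.71 for BMP NCSC minus rNCSC and -0.68 for BMP NCSC minus SCSC. Ndufs4, an accessory subunit of the electron input arm that is needed for a stable complex and is mutated in Leigh syndrome, had 9.19, 9.12 and 9.12 in BMP NCSC, against 11.03, 11.02 and 11.14 in rNCSC and 11.03, 11.08 and 10.92 in SCSC. The 3 BMP NCSC values were close together and lay far below the other 6. The difference was -1.92 ± 0.08 (SE, adjusted p = 1.1e-07) for BMP NCSC minus rNCSC and -1.87 ± 0.08 (SE, adjusted p = 1.2e-07) for BMP NCSC minus SCSC, the greatest fall of any member in both.

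Core subunits of complex I carry its redox centres, and 6 of them were tested, with a median of -0.87 for BMP NCSC minus rNCSC, against -0.60 for the 26 other tested complex I genes. Ndufs1, the largest iron-sulfur subunit, had 10.12, 10.19 and 10.07 in BMP NCSC, against 11.22, 11.16 and 11.02 in rNCSC and 11.16, 11.32 and 11.08 in SCSC. Ndufs8, an iron-sulfur subunit of the arm that leads to ubiquinone, had 11.10, 11.15 and 11.02 in BMP NCSC, against 12.32, 12.27 and 12.57 in rNCSC and 12.27, 12.30 and 12.33 in SCSC. Both fell by over 1 on the log2 scale (-1.01 and -1.30 for BMP NCSC minus rNCSC), with no overlap between BMP NCSC and the others. Ndufv1, which binds NADH and flavin, had 10.76, 11.00 and 10.64 in BMP NCSC, against 11.71, 11.79 and 11.79 in rNCSC and 11.68, 11.70 and 11.75 in SCSC. Ndufv2, an iron-sulfur partner of Ndufv1, had 12.14, 12.02 and 12.16 in BMP NCSC, against 12.92, 12.85 and 12.89 in rNCSC and 12.86, 12.85 and 12.89 in SCSC. The differences were -0.96 and -0.78, and the groups again did not overlap. Ndufs3, a core subunit of the arm that leads to ubiquinone, had 11.63, 11.75 and 11.70 in BMP NCSC, against 12.31, 12.30 and 12.32 in rNCSC and 12.29, 12.37 and 12.28 in SCSC. Ndufs7, which holds the last iron-sulfur cluster before ubiquinone, had 10.73, 10.64 and 10.78 in BMP NCSC, against 11.48, 11.38 and 11.52 in rNCSC and 11.38, 11.47 and 11.47 in SCSC. These fell by less, with -0.62 and -0.74.

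Accessory subunits spread more widely. Ndufb8, of the membrane arm, had 10.48, 10.49 and 10.56 in BMP NCSC, against 11.82, 11.93 and 11.91 in rNCSC and 11.84, 11.94 and 11.85 in SCSC. A dimmer probe set of Ndufb8 ran the other way. Ndufa10, a membrane arm subunit, had 11.14, 11.13 and 11.15 in BMP NCSC, against 12.26, 12.32 and 12.23 in rNCSC and 12.16, 12.27 and 12.25 in SCSC. Ndufc2, also of the membrane arm, had 12.22, 12.06 and 12.25 in BMP NCSC, against 13.34, 13.14 and 13.36 in rNCSC and 13.21, 13.12 and 13.29 in SCSC. Ndufa9, which sits beside the ubiquinone channel, had 11.01, 11.22 and 10.89 in BMP NCSC, against 12.14, 12.05 and 12.04 in rNCSC and 12.10, 12.11 and 12.06 in SCSC. Each was lower on all 3 BMP NCSC arrays than on the other 6, with differences of -1.37, -1.13, -1.10 and -1.03 against rNCSC.

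At the other end of complex I lay 2 members that did not pass in either comparison. Ndufa6, an accessory subunit of the LYR family, had 11.79, 11.64 and 11.43 in BMP NCSC, against 11.55, 11.49 and 11.67 in rNCSC and 11.53, 11.69 and 11.44 in SCSC. Ndufa1, a small membrane subunit encoded on the X chromosome, had 12.76, 12.92 and 12.77 in BMP NCSC, against 13.00, 13.06 and 12.91 in rNCSC and 12.93, 12.93 and 12.87 in SCSC. The BMP NCSC arrays overlapped those of SCSC for both genes. The other accessory subunits ranged from -0.91 (Ndufb7) to -0.23 (Ndufb3) against rNCSC. Among those, Ndufa13 (-0.22, adjusted p = 0.042) and Ndufv3 (-0.34, adjusted p = 0.043) passed narrowly against SCSC and no longer did so when any of several single arrays was left out. Ndufb4 was read by 1 usable probe set at 2.51 to 3.08 on the 9 arrays and was not tested. Another 2 probe sets list it together with other symbols and were not used, so this reading does not show that it was unexpressed. Ndufa11 and Ndufs6 are listed only with other symbols and were not analysed here.

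Complex II, succinate dehydrogenase, also works in the tricarboxylic acid (TCA) cycle, and all 4 of its genes were lower at any size. Sdhc, a membrane anchor that binds haem and ubiquinone, had 9.30, 9.30 and 9.12 in BMP NCSC, against 10.27, 10.39 and 10.21 in rNCSC and 10.33, 10.37 and 10.06 in SCSC. Sdhb, the iron-sulfur subunit, had 11.47, 11.55 and 11.38 in BMP NCSC, against 12.40, 12.51 and 12.36 in rNCSC and 12.45, 12.51 and 12.45 in SCSC. These fell the most, with -1.05 and -0.96 for BMP NCSC minus rNCSC and -1.01 and -1.0 for BMP NCSC minus SCSC. Sdhd, the other membrane anchor, had 10.62, 10.60 and 10.76 in BMP NCSC, against 11.40, 11.30 and 11.19 in rNCSC and 11.40, 11.39 and 11.25 in SCSC. Sdha, the catalytic flavoprotein, had 11.37, 11.52 and 11.39 in BMP NCSC, against 11.76, 11.82 and 11.82 in rNCSC and 11.81, 11.88 and 11.73 in SCSC. Sdha had the smallest difference of the complex in both comparisons (-0.37 and -0.39), and no BMP NCSC array of any of these genes overlapped the other groups.

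Complex III, the cytochrome bc1 complex, had the lowest median, -0.86 in each of the comparisons with BMP NCSC. Its 8 genes were all lower at any size against rNCSC and 7 were against SCSC. Uqcrfs1, the Rieske iron-sulfur protein, which passes electrons to cytochrome c1, had 11.08, 11.05 and 10.91 in BMP NCSC, against 12.63, 12.55 and 12.42 in rNCSC and 12.59, 12.57 and 12.50 in SCSC. It differed by -1.52 ± 0.09 (SE, adjusted p = 8.3e-07) against rNCSC and by -1.54 ± 0.09 (SE, adjusted p = 7.2e-07) against SCSC. Uqcrc1, a core scaffold subunit, had 9.71, 10.04 and 9.52 in BMP NCSC, against 10.96, 11.15 and 10.97 in rNCSC and 11.11, 11.20 and 11.01 in SCSC. Uqcrc2, the other core subunit, had 11.70, 11.74 and 11.82 in BMP NCSC, against 12.54, 12.32 and 12.46 in rNCSC and 12.35, 12.30 and 12.47 in SCSC. Both were lower with no overlap (-1.27 and -0.69 against rNCSC), and Uqcrc1 had the wider spread among BMP NCSC arrays. Uqcr10, a small accessory subunit, had 9.58, 9.42 and 9.38 in BMP NCSC, against 10.68, 10.88 and 10.61 in rNCSC and 10.71, 10.93 and 10.56 in SCSC. Uqcrq, another small accessory subunit, had 10.70, 10.76 and 10.78 in BMP NCSC, against 11.72, 11.89 and 11.65 in rNCSC and 11.77, 11.95 and 11.70 in SCSC. The differences against rNCSC were -1.26 and -1.01. Uqcrb, a small subunit of the matrix side, had 13.55, 13.53 and 13.45 in BMP NCSC, against 13.73, 13.64 and 13.81 in rNCSC and 13.68, 13.67 and 13.68 in SCSC. Uqcrb had the smallest difference, with -0.21 ± 0.08 (SE, adjusted p = 0.035) against rNCSC and -0.17 ± 0.08 (SE, adjusted p = 0.083) against SCSC, where it did not pass. Against rNCSC it also no longer passed without any 1 of 7 arrays (every array but rNCSC replicate 2 and SCSC replicate 3, with adjusted p = 0.053 to 0.11), after quantile normalization (adjusted p = 0.18) or with only the 6 arrays compared (adjusted p = 0.081).

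Complex IV, cytochrome c oxidase, had the median nearest to zero of the 5 complexes, -0.53 against rNCSC and -0.48 against SCSC, and held both members that were higher. Of its 12 tested genes, 10 were lower at any size in both comparisons. Cox5a, a nuclear-encoded subunit of the matrix side, had 13.02, 12.90 and 12.94 in BMP NCSC, against 13.57, 13.45 and 13.56 in rNCSC and 13.46, 13.43 and 13.56 in SCSC. Cox5b, a zinc-binding subunit of the matrix side, had 12.20, 12.35 and 12.26 in BMP NCSC, against 12.82, 13.02 and 12.86 in rNCSC and 12.96, 13.03 and 12.83 in SCSC. They differed by -0.57 and -0.63 against rNCSC, without overlap. The wide ranges of the complexes overlapped, and no test between complexes was made.

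Paralogue pairs of complex IV differ in where they are used, and the widely used member of each pair was lower in BMP NCSC. Cox4i1, the general form of subunit 4, had 13.10, 13.10 and 13.10 in BMP NCSC, against 13.45, 13.44 and 13.47 in rNCSC and 13.38, 13.42 and 13.46 in SCSC. Cox4i2, the form known from lung and low-oxygen settings, had 3.41, 3.25 and 3.43 in BMP NCSC, against 3.43, 3.25 and 3.46 in rNCSC and 3.25, 3.26 and 3.33 in SCSC. Cox4i1 differed by -0.35 and -0.32, while Cox4i2 stayed under the filter on all 9 arrays and was not tested. Cox6a1, the general form of subunit 6a, had 13.30, 13.41 and 13.20 in BMP NCSC, against 13.55, 13.59 and 13.44 in rNCSC and 13.57, 13.54 and 13.51 in SCSC. Cox6a2, the heart and skeletal muscle form, had 4.89, 4.53 and 4.61 in BMP NCSC, against 4.23, 4.26 and 4.37 in rNCSC and 4.19, 4.19 and 4.31 in SCSC. Cox6a1 was lower by little (-0.22 ± 0.09 (SE, adjusted p = 0.042) and -0.24 ± 0.09 (SE, adjusted p = 0.032)). Against rNCSC, leaving out any array but BMP NCSC replicate 2 or rNCSC replicate 3 lost this (adjusted p = 0.055 to 0.12). Against SCSC it was lost without BMP NCSC replicate 1 or 3 or any SCSC array (adjusted p = 0.051 to 0.096). After quantile normalization Cox6a1 passed in neither comparison (adjusted p = 0.17 and 0.13). Cox6a2 lay under the filter on every array. Its 3 BMP NCSC values were above the other 6, but values so near the low end have no secure order.

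Cox7a2, the general form of subunit 7a, had 12.98, 13.02 and 12.99 in BMP NCSC, against 13.52, 13.43 and 13.55 in rNCSC and 13.47, 13.46 and 13.49 in SCSC. Cox7a2l, a related protein that joins complexes III and IV into supercomplexes, had 11.63, 11.48 and 11.74 in BMP NCSC, against 11.97, 11.87 and 11.90 in rNCSC and 11.84, 11.86 and 11.92 in SCSC. Cox7a1, the heart and muscle form, had 2.95, 2.98 and 3.29 in BMP NCSC, against 3.51, 3.53 and 3.61 in rNCSC and 3.27, 3.58 and 3.28 in SCSC. The general forms fell modestly (-0.50 and -0.30 against rNCSC). Cox7a1 was under the filter everywhere, as were Cox7b2 (1.90 to 2.25) and Cox8c (4.27 to 4.55), forms known from testis.

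Subunit 8 was the pair with opposite changes. Cox8a, the form used in most tissues, had 10.35, 10.27 and 10.28 in BMP NCSC, against 11.47, 11.58 and 11.40 in rNCSC and 11.50, 11.76 and 11.45 in SCSC. The BMP NCSC arrays lay below the other 6, with differences of -1.19 ± 0.10 (SE, adjusted p = 9.5e-06) and -1.27 ± 0.10 (SE, adjusted p = 5.6e-06). Cox8b, the form of heart, skeletal muscle and brown fat in rodents, had 6.00, 6.36 and 7.65 in BMP NCSC, against 4.12, 3.83 and 5.21 in rNCSC and 3.57, 3.63 and 3.59 in SCSC. All 3 BMP NCSC values were above the other 6, with BMP NCSC replicate 3 and rNCSC replicate 3 the highest of their groups, and the 3 SCSC values were alike at the low end. The differences were 2.29 ± 0.46 (SE, adjusted p = 0.0016) against rNCSC, with a 95% interval of 1.24 to 3.33, and 3.07 ± 0.46 (SE, adjusted p = 0.00025) against SCSC. Leaving out 1 array at a time gave 1.80 to 2.70 against rNCSC. Cox8b passed the filter only through BMP NCSC and 1 rNCSC array, so it could hardly have been called lower, and the means near 4 make the size uncertain. None of 8 skeletal and heart muscle markers passed the filter, and their mean level was 3.16 to 3.28 in BMP NCSC, against 3.37 to 3.44 in rNCSC and 3.34 to 3.44 in SCSC. The 2 brown fat markers, Ucp1 and Cidea, were likewise under the filter. Smooth muscle and pericyte markers were called higher in 4 of 5 tested genes (Acta2 by 5.90 and Tagln by 6.13 against rNCSC), beside 22.6% of all genes. Tagln, Rgs5 and Pdgfrb passed the filter only through the BMP NCSC arrays, so they could hardly have been called lower. Acta2 and Notch3 reached 5 on all 9 arrays. Notch3 was lower (-1.53), and Cnn1 and Myh11 were under the filter. BMP NCSC replicate 3, the highest for Cox8b, was the lowest for Acta2, Tagln and Rgs5 and the highest for Pdgfrb. Acta2 had 12.45, 12.00 and 10.08 in BMP NCSC, and Tagln had 10.26, 10.45 and 7.51. The part of these markers in the level of Cox8b was not tested.

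Cox6b1, the general form of subunit 6b, had 13.12, 13.08 and 13.04 in BMP NCSC, against 13.67, 13.64 and 13.63 in rNCSC and 13.66, 13.67 and 13.64 in SCSC. Cox6b2, the form known from testis, had 8.66, 8.48 and 6.87 in BMP NCSC, against 6.92, 7.26 and 6.09 in rNCSC and 7.47, 7.31 and 7.36 in SCSC. Cox6b1 was lower without overlap (-0.57 and -0.57). For Cox6b2, replicate 3 was the lowest array in both DRG groups, and the BMP NCSC array of that number lay below 2 rNCSC arrays and all SCSC arrays. Its difference of 1.25 ± 0.47 (SE, adjusted p = 0.036) against rNCSC was lost on leaving out BMP NCSC replicate 1 (0.92, adjusted p = 0.12), BMP NCSC replicate 2 (1.01, adjusted p = 0.12), rNCSC replicate 1 (1.33, adjusted p = 0.060), rNCSC replicate 3 (0.91, adjusted p = 0.11) or any SCSC array (1.25, adjusted p = 0.052 to 0.053). Against SCSC it was 0.62 ± 0.47 (SE, adjusted p = 0.25), which did not pass, but without BMP NCSC replicate 3 it was 1.19 (adjusted p = 0.0075). The count of 2 higher members against rNCSC was therefore 1 without those arrays.

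Ndufa4, now known as a subunit of complex IV, had 12.52, 12.60 and 12.44 in BMP NCSC, against 13.21, 13.25 and 13.17 in rNCSC and 13.26, 13.24 and 13.16 in SCSC. Ndufa4l2, its paralogue, known to be induced by low oxygen, had 3.04, 3.06 and 3.11 in BMP NCSC, against 3.21, 3.21 and 3.10 in rNCSC and 3.06, 3.01 and 3.16 in SCSC. Ndufa4 was lower, by -0.69 against rNCSC and -0.70 against SCSC, with no overlap. Ndufa4l2 stayed near the low end on all 9 arrays.

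**Figure D3:**
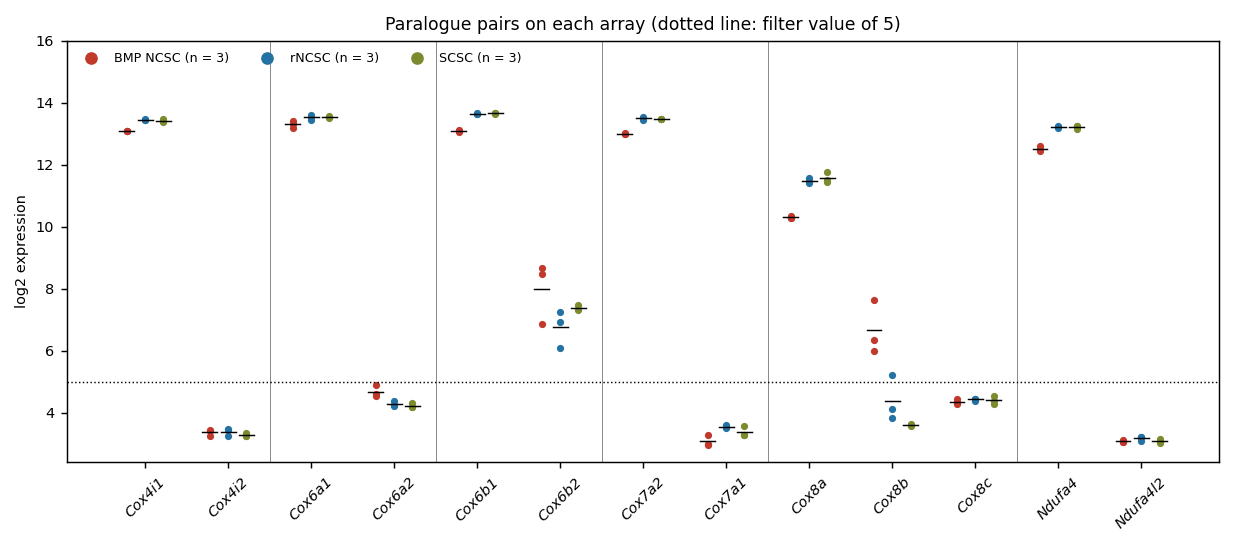
Log2 expression of the complex IV paralogues and of Ndufa4 and Ndufa4l2 on each array (points) with group means (black bars, n = 3). The dotted line is the filter value of 5. Among the forms known from particular tissues, Cox8b and Cox6b2 reach the line, and Cox4i2, Cox6a2, Cox7a1, Cox8c and Ndufa4l2 stay under it on all 9 arrays.

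The ATP synthase was lower in BMP NCSC in all 17 of its genes against rNCSC and in 16 against SCSC, with medians of -0.65 and -0.66. Atp5o, the stalk subunit that holds the catalytic head to the membrane part, had 11.16, 11.09 and 11.20 in BMP NCSC, against 12.72, 12.64 and 12.61 in rNCSC and 12.62, 12.68 and 12.65 in SCSC. It had the greatest fall of the complex, -1.51 ± 0.08 (SE, adjusted p = 3.0e-07) and -1.50 ± 0.08 (SE, adjusted p = 2.9e-07). Atp5mpl, a small membrane subunit, had 9.51, 9.49 and 9.62 in BMP NCSC, against 10.62, 10.83 and 10.70 in rNCSC and 10.84, 10.80 and 10.65 in SCSC. Atp5k, subunit e, which helps to pair synthase complexes in the membrane, had 11.34, 11.31 and 11.34 in BMP NCSC, against 12.43, 12.33 and 12.35 in rNCSC and 12.29, 12.26 and 12.30 in SCSC. Both were lower with no overlap, with -1.17 and -1.04 against rNCSC.

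Genes of the catalytic head were lower in BMP NCSC, as follows for 3 of them. Atp5a1, the alpha subunit of the head, had 12.15, 12.18 and 12.25 in BMP NCSC, against 12.71, 12.72 and 12.64 in rNCSC and 12.70, 12.75 and 12.67 in SCSC. Atp5b, the catalytic beta subunit, had 12.02, 12.13 and 11.89 in BMP NCSC, against 12.96, 12.92 and 12.85 in rNCSC and 12.91, 12.87 and 12.84 in SCSC. Atp5c1, the gamma subunit that turns within the head, had 12.68, 12.79 and 12.73 in BMP NCSC, against 13.39, 13.41 and 13.37 in rNCSC and 13.39, 13.43 and 13.35 in SCSC. The median of the 5 head genes was -0.65 against rNCSC, and that of the 12 other synthase genes was -0.66. The c subunit of the rotor ring is made from 3 genes that encode the same mature protein. Atp5g1, 1 of the 3, had 10.69, 10.58 and 10.67 in BMP NCSC, against 11.45, 11.49 and 11.50 in rNCSC and 11.56, 11.59 and 11.59 in SCSC. Atp5g2, another, had 11.47, 11.31 and 11.43 in BMP NCSC, against 12.42, 12.47 and 12.38 in rNCSC and 12.38, 12.43 and 12.32 in SCSC. Atp5g3, the last, had 12.62, 12.78 and 12.54 in BMP NCSC, against 13.31, 13.53 and 13.32 in rNCSC and 13.46, 13.53 and 13.32 in SCSC. All 3 were lower against rNCSC (-0.84, -1.02 and -0.74) and against SCSC (-0.94, -0.97 and -0.79). Atp5l, subunit g of the membrane part, had 12.68, 12.82 and 12.55 in BMP NCSC, against 13.01, 13.03 and 12.94 in rNCSC and 13.09, 13.04 and 12.96 in SCSC. Atp5e, the epsilon subunit of the head, had 11.84, 11.96 and 11.89 in BMP NCSC, against 12.28, 12.32 and 12.16 in rNCSC and 12.01, 12.07 and 12.11 in SCSC. These were the smallest differences of the complex, Atp5l with -0.31 against rNCSC and Atp5e with -0.17 ± 0.08 (SE, adjusted p = 0.08) against SCSC, where it did not pass.

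Different probe sets for the same gene mostly gave the same direction. Of the 164 probe sets, 136 passed the filter, of which 128 were lower and 3 higher at any size in BMP NCSC than in rNCSC, and 125 and 2 in BMP NCSC than in SCSC. The higher ones were those of Cox8b and Cox6b2 and a dim one of Ndufb8 against rNCSC, and those of Cox8b and Ndufb8 against SCSC. The shares over all probe sets were not counted. Over all genes tested, 41.2% were lower and 36.8% higher at any size against rNCSC, and 43.1% and 36.6% against SCSC. Of 42 members with more than 1 tested probe set, 41 had all of them on the same side of zero against rNCSC, and in 38 every probe set was lower at an adjusted p below 0.05. For Ndufs4 the 3 probe sets gave -1.92, -2.11 and -1.69. For Ndufs8 the 6 probe sets ranged from -2.02 to -0.41, so its size depends on the probe set read. The size varied with the probe set in other members too, with a median range of 0.24 over the 42 members. Ndufb8 was the exception: the probe set used here averaged 10.51 in BMP NCSC and 11.88 in rNCSC, while a dimmer one averaged 5.38 in BMP NCSC and 3.57 in rNCSC, a difference of 1.81. With the mean of its probe sets in place of the brighter one, Ndufb8 gave 0.22 against rNCSC and 0.29 against SCSC.

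**Figure D4:**
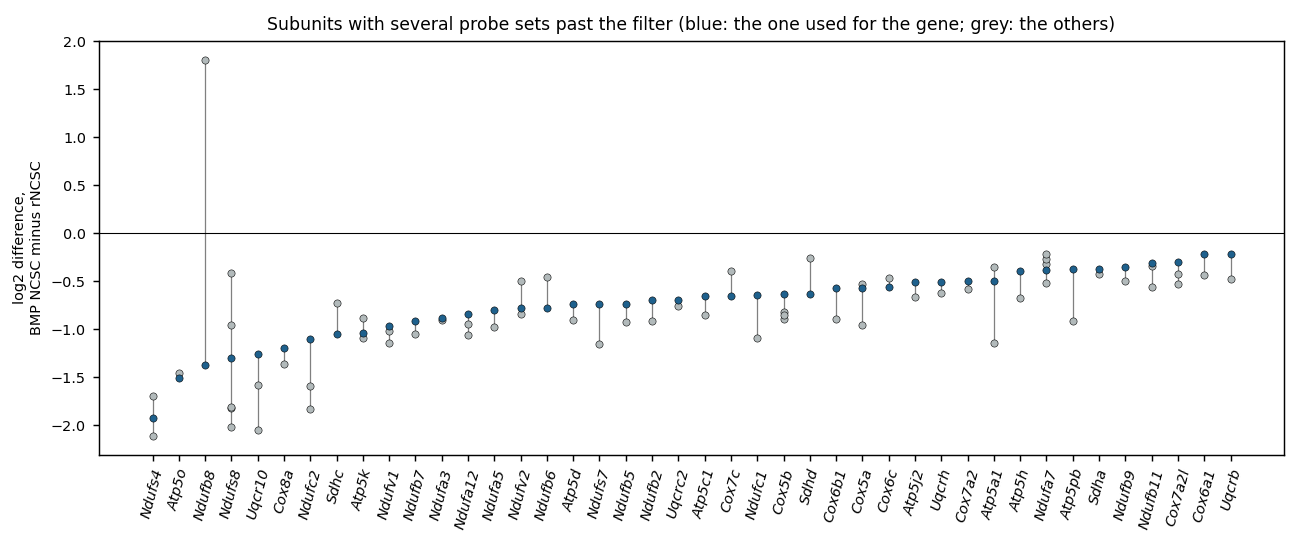
Log2 difference, BMP NCSC minus rNCSC, of every probe set past the filter for the 42 subunit genes with more than 1, ordered by the probe set used for the gene (blue), with the other probe sets in grey. All but 1 of the genes have every probe set on the same side of zero, the exception being Ndufb8 (-1.37 and 1.81).

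Genes that work beside the respiratory chain were read from lists drawn up by function. The electron carriers and subunits outside the symbol families were all lower at any size against rNCSC (4 of 4, median -0.74), beside 41.2% of all genes. Cyc1, cytochrome c1, the haem subunit of complex III, had 10.67, 10.88 and 10.49 in BMP NCSC, against 12.20, 12.38 and 12.20 in rNCSC and 12.40, 12.42 and 12.31 in SCSC. It differed by -1.58 ± 0.11 (SE, adjusted p = 2.6e-06) against rNCSC and by -1.70 ± 0.11 (SE, adjusted p = 1.6e-06) against SCSC. The others were Cycs, cytochrome c (-0.83), Ndufab1, the acyl carrier protein of complex I (-0.64), and Atpif1, the inhibitor of the ATP synthase (-0.36).

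The TCA cycle feeds NADH and succinate to the chain. Of its 12 tested genes, 11 were lower at any size in BMP NCSC against rNCSC and against SCSC. Over all genes tested, 41.2% were lower against rNCSC and 43.1% against SCSC. The cycle had a median of -1.03 against rNCSC and -1.05 against SCSC. By the rule for calls, 6 of its genes were lower in each, beside 21.3% and 24.0% of all genes. Cs, citrate synthase, its entry enzyme, had 11.19, 11.29 and 11.10 in BMP NCSC, against 13.04, 13.05 and 12.78 in rNCSC and 12.95, 13.02 and 13.01 in SCSC. The difference against rNCSC was -1.76, with no overlap between BMP NCSC and the others. Suclg2, a subunit of succinyl-CoA ligase, differed by -1.68, and Idh3a, the catalytic subunit of isocitrate dehydrogenase, by -1.48. Ogdh, of the oxoglutarate dehydrogenase complex, did not pass (0.11, adjusted p = 0.48).

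Assembly factors were read beside the 41.2% of all genes that were lower and the 36.8% that were higher at any size against rNCSC. Of 13 complex I assembly genes, 9 were lower and 1 higher at any size against rNCSC (median -1.07), with Ndufaf6 at -2.40 and Ndufaf5 at -2.05, both needed for early assembly steps, and Ndufaf3 at 0.87 (adjusted p = 0.033). For complexes II and III, 4 of 8 were lower and 3, Sdhaf2, Sdhaf4 and Uqcc3, were higher (median 0.03), with Sdhaf1, the factor for Sdhb, at -1.34. For complex IV, 5 of 14 were lower and 2, Surf1 and Cox20, were higher (median -0.19). Surf1, a complex IV assembly factor mutated in Leigh syndrome, had 10.60, 10.63 and 10.45 in BMP NCSC, against 9.56, 9.59 and 9.64 in rNCSC and 9.65, 9.64 and 9.53 in SCSC. Surf1 was higher by 0.96 ± 0.08 (SE, adjusted p = 9.2e-06), while Cox10, which makes haem for complex IV, was lower (-1.05). Counts this small, for complexes II, III and IV, are not far from those shares. For the ATP synthase, Atpaf1 was lower (-1.18), Atpaf2 higher (0.40) and Tmem70 did not pass (-0.08). Against SCSC the medians of these 4 lists were -1.05, -0.14, -0.32 and -0.05.

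Regulators of mitochondrial biogenesis were lower at any size in 11 of 14 genes against rNCSC (median -0.60), beside 41.2% of all genes. Against SCSC 10 were lower (median -0.67), beside 43.1% of all genes. By the rule for calls, 5 were lower in each comparison, beside 21.3% and 24.0% of all genes. Ppargc1a and Ppargc1b reached 5 on no BMP NCSC array and passed the filter through the other groups, so they could hardly have been called higher. Ppargc1a, the coactivator PGC-1alpha, which drives respiratory gene expression, had 2.98, 3.58 and 2.95 in BMP NCSC, against 10.17, 9.38 and 9.94 in rNCSC and 9.20, 9.24 and 9.64 in SCSC. All 6 arrays without BMP4 read above 9, and the BMP NCSC arrays were near the low end of the scale, so the size of the difference (-6.66 and -6.19) is uncertain. Nrf1, nuclear respiratory factor 1, had 5.25, 4.97 and 5.18 in BMP NCSC, against 6.25, 6.35 and 6.06 in rNCSC and 6.00, 5.87 and 6.11 in SCSC. Gabpb1, the partner of Gabpa in nuclear respiratory factor 2, had 5.71, 6.06 and 5.74 in BMP NCSC, against 7.19, 7.71 and 7.34 in rNCSC and 7.89, 7.74 and 7.54 in SCSC. Nrf1 differed by -1.09 and Gabpb1 by -1.58 against rNCSC, and Gabpa by -0.56. Yy1, a zinc finger factor, had 11.87, 11.91 and 11.92 in BMP NCSC, against 11.93, 11.91 and 11.95 in rNCSC and 11.85, 11.80 and 11.88 in SCSC. Yy1 did not pass (-0.03, adjusted p = 0.72), nor did Tfb2m and Polrmt of the mitochondrial transcription machinery.

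Import and transport genes were lower in part. Of 9 outer membrane and import genes, 7 were lower at any size against rNCSC (median -0.66), beside 41.2% of all genes. Largest were the falls of Tomm40, the import pore (-1.80), and Timm23 of the inner membrane translocase (-1.31). Tomm20 (0.11) and Vdac3 (-0.16) did not pass. Among the ADP and ATP carriers the forms parted. Slc25a5, the carrier of dividing cells, had 12.21, 12.33 and 12.28 in BMP NCSC, against 13.89, 13.88 and 13.82 in rNCSC and 13.86, 13.86 and 13.79 in SCSC. Slc25a4, the carrier of heart and muscle, had 13.48, 13.54 and 13.47 in BMP NCSC, against 13.51, 13.55 and 13.56 in rNCSC and 13.50, 13.53 and 13.50 in SCSC. Slc25a5 differed by -1.59 ± 0.08 (SE, adjusted p = 2.1e-07), whereas Slc25a4 did not pass (-0.04 ± 0.07 (SE, adjusted p = 0.61)).

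**Figure D5:**
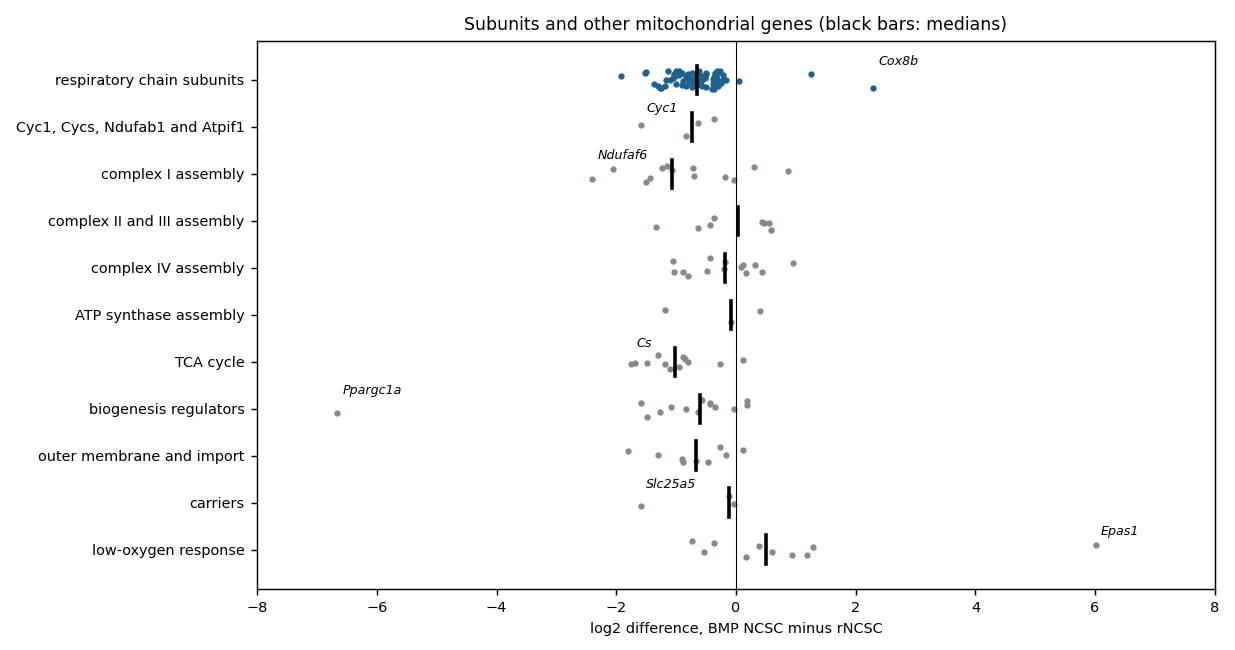
Log2 difference, BMP NCSC minus rNCSC, of the 74 tested subunit genes (blue, top) and of the tested genes of 10 lists of other mitochondrial and low-oxygen genes (grey), with each list's median (black bar). Medians run from -1.07 (complex I assembly) to 0.49 (low-oxygen response), and Ppargc1a (-6.66) and Epas1 (6.01) lie farthest from zero.

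Markers of cell type and of proliferation moved with the same groups. The 6 CNS progenitor markers had a mean level of 4.89 to 4.93 over the BMP NCSC arrays, against 11.88 to 12.08 in rNCSC and 12.05 to 12.18 in SCSC. Within that list Sox2 averaged 12.55 in BMP NCSC (-0.32 against rNCSC) and Nes 7.61 (-2.74), while the other 4 were under the filter in BMP NCSC. The 4 neural crest and glia markers on the array averaged 7.97 to 8.38 in BMP NCSC. They averaged 3.40 to 3.47 in rNCSC and 3.34 to 3.49 in SCSC. Among them, Foxd3 was under the filter on every array (3.4, 3.5 and 4.2 in BMP NCSC) and was not tested. None of the 4 reached 5 in rNCSC, although these spheres come from DRG. Cartilage and matrix markers averaged 12.19 to 12.64 in BMP NCSC, against 4.0 to 4.08 in rNCSC and 3.96 to 4.16 in SCSC, although Sox9 was lower against rNCSC (-0.77). Smooth muscle and pericyte markers averaged 7.40 to 8.21 in BMP NCSC, against 3.81 to 3.94 in rNCSC and 3.74 to 3.79 in SCSC, with Cnn1 and Myh11 under the filter and Notch3 lower against rNCSC (-1.53). The 5 proliferation genes averaged 5.95 to 6.89 in BMP NCSC, against 11.51 to 11.54 in rNCSC and 11.62 to 11.64 in SCSC. Endothelial and erythroid markers were under the filter on every array. The part of these differences in cell type and division in the fall of the respiratory genes was not tested.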

How the data were processed

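Gene expression was measured on 9 arrays, grouped by the samples' titles into BMP NCSC, rNCSC and SCSC (n = 3 each). The deposited values are log2 expression, 1 per probe set. GCRMA produced them, per the submitters' processing notes, with no version given in the sources used here. The method normalizes the arrays together and compresses unexpressed transcripts into a narrow low range, so differences involving a mean under 4 have an uncertain size. Array medians lay between 3.99 and 4.03, 38.7% to 39.9% of probe sets reached 5, and arrays within a group correlated at r = 0.986 or more.

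Of 45101 probe sets, 34958 had 1 symbol in the platform annotation, 932 had several and 9211, with the 64 controls, are unnamed here. Of the 932, 9 list a subunit gene with other symbols and were not used. Each gene was read from its brightest probe set, by the mean of the 9 arrays. Genes reaching 5 on at least 3 arrays were tested (10320 of 18194), which left out 7 members: Ndufb4, Cox4i2, Cox6a2, Cox7a1, Cox7b2, Cox8c and Ndufa4l2. All 81 members matched the RefSeq gene table of GRCm38.p6, used for names, chromosomes and promoters.

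The 3 groups were fitted as means in 1 limma model of the 9 arrays (limma 3.58.1, R 4.3.3; residual degrees of freedom 6, prior 2.39). The p-values are two-sided and Benjamini-Hochberg adjusted across the 10320 genes. Calls needed both an adjusted p below 0.05 and a log2 difference of 1 or more in size. Counts at any size use the adjusted p alone. On simulated data for BMP NCSC minus rNCSC, with 200 of 19959 probe sets changed, 63.5% of changes of 1 and 93.0% of changes of 2 were found at an adjusted p below 0.05, and 7.97% and 4.62% of those found were false. None of the changes of 0.5 was found in that simulation. In the data far more genes differed (41.2% lower and 36.8% higher at any size against rNCSC), which makes the adjustment less strict. The simulated shares are therefore not the power of the tests made here, where many members with smaller differences passed. Figures were drawn with matplotlib 3.10.9.

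Named in full were the paralogue pairs, the core subunits, every called member, and the highest and lowest member of each complex in each comparison. Other named genes of the 10 pathway lists (99 genes) and 9 marker lists were picked with their values in view, as were Ndufa13, Ndufv3, Ndufb1 and Cox7c. The members and lists were chosen with earlier results of these data known. Subunits without a symbol on the platform were not analysed here.

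Alternatives were median centring, quantile normalization, no filter or a filter at 6, every probe set on its own, the mean of a gene's probe sets, only the 6 arrays compared, an intensity trend, an adjusted p below 0.01, the replicate number as a block, and leaving out each array.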

Additional observations from a re-analysis of the deposited data

How the results depend on the processing

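The lower direction held in the median of the tested members in both comparisons with BMP NCSC under every alternative run. For BMP NCSC minus rNCSC, leaving out 1 array at a time gave medians of -0.66 to -0.62, 67 to 70 members lower at any size, 13 to 17 called lower, and 1 to 2 higher at any size and called higher. For BMP NCSC minus SCSC it gave medians of -0.66 to -0.64, 63 to 67 lower at any size, 12 to 18 called lower, and 1 to 2 higher at any size and called higher. For rNCSC minus SCSC the median was 0.00 to 0.03 with 0 members called. Median centring moved the median to -0.69 for BMP NCSC minus rNCSC and to 0.07 for rNCSC minus SCSC. For BMP NCSC minus SCSC the median was -0.61 after quantile normalization, -0.62 without the filter and -0.62 with the mean of a gene's probe sets, and the last 2 gave 2 members higher at any size. With every probe set counted on its own, 128 were lower at any size, 36 called lower and the median was -0.73 for BMP NCSC minus rNCSC. For BMP NCSC minus SCSC these were 125, 35 and -0.72, with 2 called higher and 2 higher at any size. These counts are larger because probe sets and not genes are counted. Beside the left-out arrays, the lowest counts were 12 called lower against rNCSC (11 of the 17) and 14 against SCSC (11 of the 16) with the mean of a gene's probe sets, and 62 and 61 lower at any size at an adjusted p below 0.01. Against rNCSC, 1 member was called higher and 1 was higher at any size with a filter at 6, with only the 6 arrays compared and at an adjusted p below 0.01. Against SCSC there were 0 of each with a filter at 6, since Cox8b was then not tested. The sign turned for Ndufb8 with the mean of its probe sets, to 0.22 against rNCSC and 0.29 against SCSC, where a dim probe set runs the other way. It also turned for Ndufa6, which passed in neither comparison, without BMP NCSC replicate 1 (-0.03 and -0.02).

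The labels number the replicates. Same-numbered arrays of different groups deviated together at r over 0.1 in 5 of 9 pairs (0.042 to 0.298). Pairs of unlike number ran from -0.245 to 0.118, and 8 of 9 arrays correlated best with an array of their own number. The numbers were not taken as pairing. With the replicate number as a block, 17 members were called lower and 70 were lower at any size against rNCSC, and 16 and 66 against SCSC, where Ndufa13 (adjusted p = 0.054) and Ndufv3 (adjusted p = 0.056) no longer passed in limma. Single members were also followed, with 1 result for each member under each alternative. Of these results, 1288 against rNCSC and 1281 against SCSC stayed the same. Another 39 and 45 no longer passed, 3 and 4 newly passed, and 1 in each comparison (Ndufb8) turned its sign. The same few members recur among the results that changed. With 3 arrays a group, differences near 0.2 lie close to what the test can detect, and levels near the low end of the scale have no secure order.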

Other observations

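Genes of the low-oxygen response were listed beside Cox4i2 and Ndufa4l2. Of 10 tested, 2 (Epas1 and Slc2a1) were higher and 2 (Higd1a and Lonp1) lower at any size in BMP NCSC than in rNCSC, with a median of 0.49, and 4 (those 2, Vegfa and Ldha) were higher and 1 (Lonp1) lower than in SCSC, with a median of 1.10. Of all genes tested, 36.8% were higher and 41.2% lower against rNCSC, and 36.6% and 43.1% against SCSC, so these shares lie near or below those of all genes. Epas1, which encodes the hypoxia-inducible factor 2 alpha subunit, had 11.59, 12.16 and 12.51 in BMP NCSC, against 5.13, 5.33 and 7.79 in rNCSC and 5.44, 5.62 and 6.10 in SCSC. Its difference was 6.01 against rNCSC (limma, adjusted p = 3.1e-05). Slc2a1, the glucose transporter GLUT1, had 11.82, 11.65 and 11.92 in BMP NCSC, against 11.06, 10.22 and 10.25 in rNCSC and 9.71, 10.83 and 9.80 in SCSC. Both were higher on all 3 BMP NCSC arrays than on the other 6.

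One SCSC array stood apart in these genes. Pdk1, a kinase that keeps pyruvate out of the TCA cycle, had 6.64, 10.54 and 7.09 on the SCSC arrays, and Bnip3, a mitophagy receptor, had 7.73, 11.52 and 7.58. Ldha, the lactate dehydrogenase A subunit, had 12.67, 13.31 and 12.61 on the same arrays. The array labelled replicate 2 was the highest of the group in all 3 genes. Among the rNCSC arrays, replicate 1 was the highest in the same 3 genes, by less (Pdk1 had 10.56, 9.22 and 9.31). The median level of the respiratory chain members on the SCSC arrays was 12.27, 12.26 and 12.29, so the array that stood apart for these genes did not stand apart for the subunits. This relation within 1 group of 3 arrays was not tested.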
